A study of Mus musculus with 9 samples.

Results

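The 60 genes described here belong to the cell cycle and DNA replication. They were chosen by symbol from textbook roles, with earlier results of these data known. Of these, 29 are genes of S phase, in which DNA is copied, and 31 of mitosis, in which the copied chromosomes are separated. All 60 were found among the 22064 genes listed in the deposited files, all had values, and all were among the 14108 genes that passed the filter on low counts and were tested. The 9 libraries are bulk RNA sequencing of lung neutrophils from female BALB/c mice, with 3 libraries in each of 3 groups. Ly6Ghi and Ly6Glow are CD45+ cells with high and low surface Ly6g (a neutrophil marker), sorted from the lung at the macrometastatic stage after 4T1-LM3 cells, a lung-tropic derivative of the 4T1 mammary carcinoma line, had been injected into the mammary fat pad. NL is CD45+ cells with high Ly6g from normal lung tissue, so that NL and Ly6Ghi differ in the host and Ly6Ghi and Ly6Glow differ in the gate. No genetic change and no drug is named for any group, and it is not stated whether a library came from 1 mouse or from pooled mice, so p-values measure only the spread between these libraries, which may be technical. The titles and treatment fields place the NL libraries in normal lung, while their description fields name only the high Ly6g group.

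Cells enter the cycle when D-type and E-type cyclins with their kinases release E2F transcription factors from pocket proteins, and E2F then drives genes that license replication origins, run the replication fork and supply nucleotides. A later set of genes, for the mitotic kinases, the spindle, the kinetochore and cytokinesis, is held down in resting cells by the DREAM complex. Before division this set is driven by MuvB with B-MYB and FOXM1, through a promoter element named CHR. Many of these promoters also hold another element, the CCAAT box. Neutrophil precursors divide in the bone marrow up to the myelocyte stage, and the later stages, up to the segmented cell found in blood and tissue, are thought not to divide. Primary granule proteins such as elastase and myeloperoxidase are made by the dividing precursors, and secondary granule proteins such as lactoferrin somewhat later.

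The sequences below are the stretches of 150 bases just before the annotated start of 10 members, shown so that the motifs counted over S-phase and mitotic promoters can be seen in place. They are RefSeq sequences of the mouse build GRCm38.p6, written 5′ to 3′ on the strand of the gene. Capitals mark 1 of 3 motifs on either strand, which are the E2F octamers (TTTCCCGC, TTTCGCGC, TTTGCCGC and TTTGGCGC), the CHR hexamer (TTTGAA) and the CCAAT pentamer. No marked matches overlap, but in Mcm5 another E2F match begins before the stretch, overlaps the marked one and is not marked. Among all members, matches of different motifs overlap in 1 gene, Mcm7 (E2F and CCAAT). Matches of the same motif overlap in further genes, such as Mcm6. The first 6 are mitotic genes, of which Kif23 was the exception among the levels described further on. The window of Kif23 also held a CHR match just past the start, outside the stretch shown.
Mki67, chr7:135716380-135716529, minus strand: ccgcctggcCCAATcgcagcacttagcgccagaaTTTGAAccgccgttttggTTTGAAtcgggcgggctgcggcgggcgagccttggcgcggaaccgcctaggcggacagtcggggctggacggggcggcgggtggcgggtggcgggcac
Top2a, chr11:99024190-99024339, minus strand: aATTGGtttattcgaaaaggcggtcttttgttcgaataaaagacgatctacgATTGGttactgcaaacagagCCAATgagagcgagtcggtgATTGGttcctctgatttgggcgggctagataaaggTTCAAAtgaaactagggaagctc
Cdk1, chr10:69352913-69353062, minus strand: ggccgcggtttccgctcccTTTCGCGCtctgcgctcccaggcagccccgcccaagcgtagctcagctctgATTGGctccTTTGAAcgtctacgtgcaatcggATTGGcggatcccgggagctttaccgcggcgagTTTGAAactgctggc
Cdc20, chr4:118437344-118437493, minus strand: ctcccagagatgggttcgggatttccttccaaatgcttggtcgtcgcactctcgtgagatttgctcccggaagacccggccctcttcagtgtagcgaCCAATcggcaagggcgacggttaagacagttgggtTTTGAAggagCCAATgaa
Cdkn3, chr14:46760391-46760540, plus strand: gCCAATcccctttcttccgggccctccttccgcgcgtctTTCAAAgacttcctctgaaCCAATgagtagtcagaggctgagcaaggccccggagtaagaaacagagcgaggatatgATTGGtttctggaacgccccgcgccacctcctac
Kif23, chr9:61946800-61946949, minus strand: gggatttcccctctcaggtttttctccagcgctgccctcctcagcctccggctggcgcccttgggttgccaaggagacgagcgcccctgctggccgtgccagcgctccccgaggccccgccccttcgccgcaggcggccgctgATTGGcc
The other 4 are S-phase genes.
Cdc6, chr11:98908001-98908150, plus strand: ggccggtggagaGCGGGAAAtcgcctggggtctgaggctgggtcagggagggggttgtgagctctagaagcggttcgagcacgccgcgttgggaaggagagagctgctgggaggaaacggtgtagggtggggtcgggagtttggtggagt
Mcm5, chr8:75109359-75109508, plus strand: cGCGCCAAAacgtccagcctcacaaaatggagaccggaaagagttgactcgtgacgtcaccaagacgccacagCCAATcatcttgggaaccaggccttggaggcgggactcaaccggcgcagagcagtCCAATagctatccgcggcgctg
Pola1, chrX:93632156-93632305, minus strand: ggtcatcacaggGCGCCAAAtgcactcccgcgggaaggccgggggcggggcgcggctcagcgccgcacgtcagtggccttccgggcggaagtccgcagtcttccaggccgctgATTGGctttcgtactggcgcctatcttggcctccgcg
Cdk2, chr10:128705052-128705201, minus strand: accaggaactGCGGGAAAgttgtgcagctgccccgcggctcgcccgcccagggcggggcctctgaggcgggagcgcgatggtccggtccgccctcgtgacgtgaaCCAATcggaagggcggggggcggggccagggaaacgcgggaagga
Of the matched mitotic members, Cdk1 was the only one whose window held an E2F octamer, and it also held CHR and CCAAT matches. All 4 S-phase stretches held an E2F octamer more than 100 bases before the start and none held a CHR. They do not stand for the class, in which 10 matched members held an E2F octamer, 15 did not and 4 held a CHR.

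Motifs were counted over the whole RefSeq windows, from 250 bases before to 50 after the start, and 51 of the 60 members matched a window. An E2F octamer was found in 10 of 31 windows of S-phase genes (32.3%), in 1 of 28 windows of mitotic genes (3.57%) and in 3.30% of the 18128 windows of all genes with deposited values. The CHR hexamer was found in 22 of 28 mitotic windows (78.6%), 4 of 31 S-phase windows (12.9%) and 13.3% of the windows of all genes with values. A CCAAT box was found in 82.1% of mitotic, 58.1% of S-phase and 37.6% of all such windows, and CHR and CCAAT stood together in 71.4%, 9.68% and 5.43%. Over the whole table of 32851 windows the shares were 2.26% for E2F, 17.9% for CHR and 37.4% for CCAAT. The 10 S-phase genes with an E2F octamer were Cdc6, Cdk2, Cdt1, Dnmt1, Mcm3, Mcm5, Mcm6, Mcm7, Pola1 and Uhrf1, and the 6 matched mitotic genes without a CHR were Birc5, Bub1, Ccnb1, Cenpe, Nuf2 and Nusap1. The 9 members not matched were Aurkb, Ccna2, Ccne2, Gins2, Gmnn, Kif20a, Mcm4, Stmn1 and Tpx2. Matches are a description of letters in a window and say nothing of binding.

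**Figure D1:**
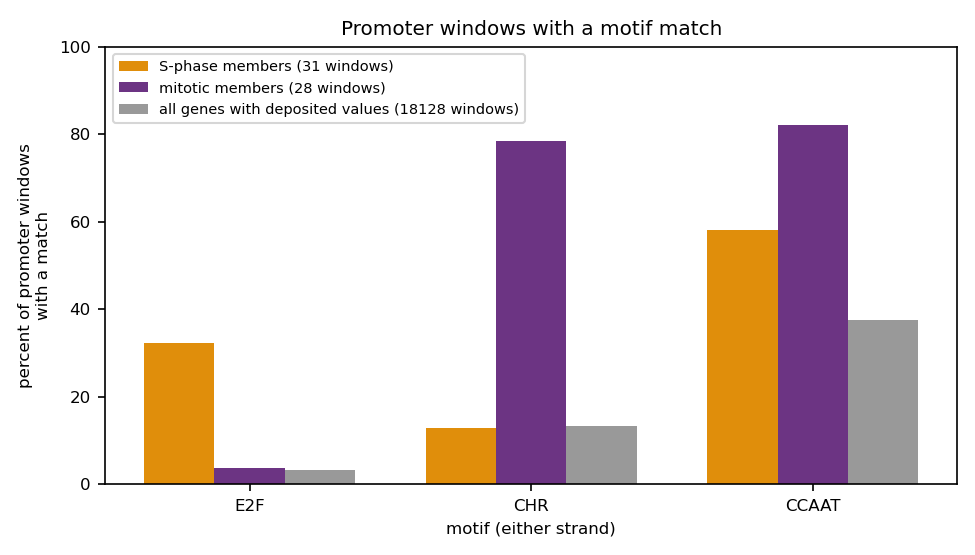
Percent of promoter windows (300 bases) with a match to each of 3 motifs on either strand, for 31 windows of S-phase members, 28 windows of mitotic members and 18128 windows of all genes with deposited values. The mitotic bar stands out for CHR (78.6%) and the S-phase bar for E2F (32.3%).

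Most mitotic genes were higher in Ly6Ghi than in either other group. The median of the 31 mitotic genes was 20.8, 20.4 and 20.7 CPM (counts scaled to the normalized library size) in the Ly6Ghi libraries, 3.74, 3.24 and 3.20 in Ly6Glow and 5.88, 5.57 and 5.59 in NL. S-phase genes followed another order, with a median over the 29 genes of 9.72, 10.7 and 10.0 CPM in Ly6Ghi, 3.33, 3.76 and 3.74 in Ly6Glow and 11.4, 9.45 and 9.06 in NL. By class median, Ly6Ghi and NL thus overlapped for the S-phase genes and did not for the mitotic genes, and Ly6Glow lay below both for either class. The summed CPM of the S-phase genes, in which Ccnd3 had the highest level, had another order. It was 1177 to 1213 in Ly6Ghi, 788 to 837 in Ly6Glow and 481 to 518 in NL. The mitotic sums kept the order of the medians. By group mean, Ly6Ghi was the highest group for 30 of 31 mitotic genes, with Stmn1 as the exception, and for 17 of 29 S-phase genes, NL being highest for the other 12. Across bulk libraries, fewer cycling cells and less of these RNAs per cell cannot be told apart. Ly6Glow was the lowest group for 26 genes in each class.

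**Figure D2:**
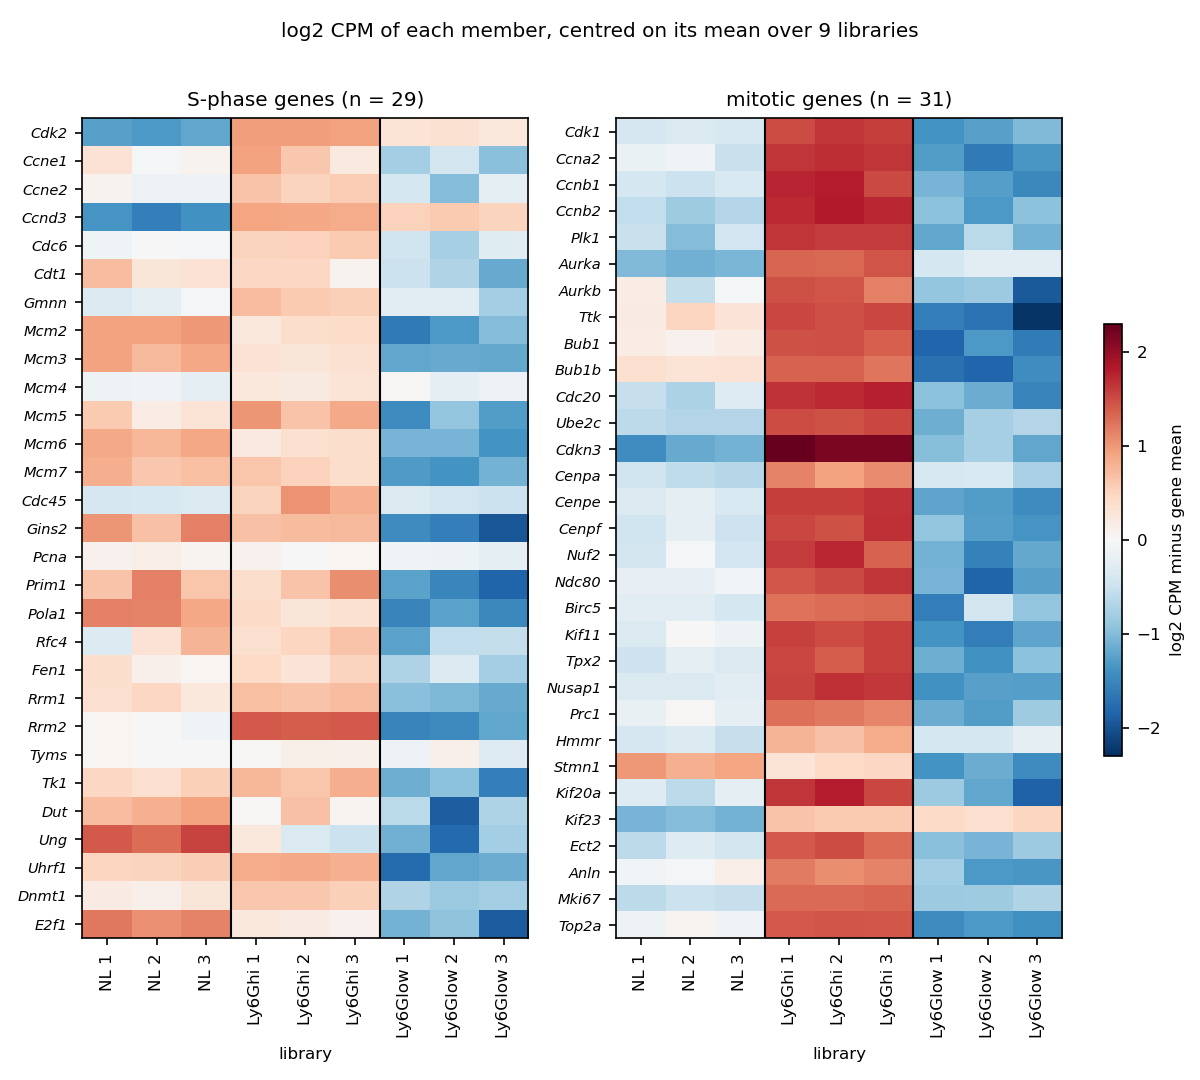
log2 CPM of each of the 60 members in the 9 libraries, minus the mean of the gene over the libraries (red higher, blue lower), with S-phase genes on the left and mitotic genes on the right. The mitotic genes are red in the 3 Ly6Ghi libraries, with Stmn1 redder still in NL and Kif23 also red in Ly6Glow; the S-phase genes are mostly blue in Ly6Glow and red in both other groups.

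A gene was called where the adjusted p of edgeR's quasi-likelihood test, adjusted by Benjamini-Hochberg over all 14108 genes, was at most 0.05 and the absolute log2 fold change was above 0.58. For Ly6Ghi over NL, 30 of 31 mitotic genes were called higher and 0 lower, against 26.3% of all tested genes higher and 36.6% lower. The median log2 fold change of the mitotic genes was 1.84 (3.58-fold), with -0.09 for all tested genes. Of the 29 S-phase genes, 7 were called higher, 4 lower and 18 neither way, with a median of 0.22; 24.1% called higher is close to the 26.3% of all genes. The lowest mitotic log2 fold change was -0.49 (Stmn1), short of the fold threshold, so an unadjusted p could not change the 0 called lower. The count was also 0 by DESeq2. Stmn1 was called lower with at least 10 counts in every library and in each FPKM fit. The 3 comparisons share libraries and are not independent. On log2(FPKM + 1), in the limma fit on deposited values scaled for length and depth, 25 mitotic genes were called higher, and 3 S-phase genes were called higher and 7 lower. Marker sums of several other cell types were higher in NL, and of others in Ly6Ghi, with values given further on.

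For Ly6Glow over NL, 2 mitotic genes were called higher (Aurka and Kif23) and 20 lower, where 28.7% of all tested genes were higher and 40.8% lower. S-phase genes gave 2 higher (Cdk2 and Ccnd3) and 20 lower. The medians were -0.84 for the mitotic and -1.36 for the S-phase genes, with -0.16 over all tested genes.

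For Ly6Glow over Ly6Ghi, the comparison of both gates in the same kind of lung, 0 members were called higher and 54 of 60 lower, where 9.29% of all tested genes were higher and 15.9% lower. The highest log2 fold change of any member was -0.18, so no choice of p could call a member higher in this fit. The count was therefore 0 at an unadjusted p too, and it was 0 by DESeq2. The mitotic genes had 30 called lower and a median log2 fold change of -2.78 (6.87-fold lower), and the S-phase genes 24 called lower and a median of -1.32 (2.49-fold lower). The 6 members not called were Kif23, Ccnd3, Mcm4, Pcna, Tyms and Ung.

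**Figure D3:**
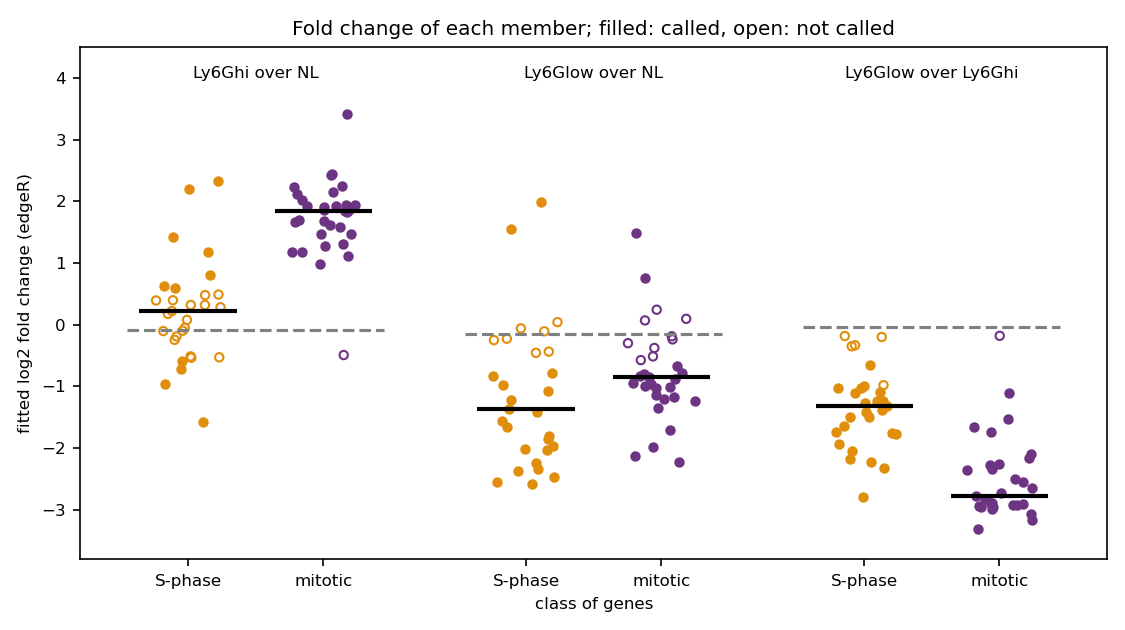
Fitted log2 fold change of each member for the 3 comparisons, S-phase genes in orange and mitotic genes in purple, filled where called and open where not; black bars are class medians and dashed grey lines the median of all 14108 tested genes. The mitotic genes lie far above the dashed line for Ly6Ghi over NL (median 1.84) and far below it for Ly6Glow over Ly6Ghi (median -2.78), while the S-phase genes straddle it for Ly6Ghi over NL.

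The cyclins and kinases that start and run mitosis were all called in both comparisons with Ly6Ghi. They were higher in Ly6Ghi than in NL and lower in Ly6Glow than in Ly6Ghi, calls made for 26.3% and 15.9% of all tested genes. Cdk1, the kinase that triggers mitotic entry, was at 13.2, 14.5 and 14 CPM in Ly6Ghi, 1.79, 1.96 and 2.29 in Ly6Glow and 3.55, 3.7 and 3.6 in NL. The 3 groups did not overlap, with Ly6Ghi highest and Ly6Glow lowest. Its log2 fold change was 1.94 ± 0.10 (SE) for Ly6Ghi over NL, -0.84 ± 0.16 for Ly6Glow over NL and -2.78 ± 0.13 for Ly6Glow over Ly6Ghi. Ccna2, cyclin A2, which pairs with CDK2 and CDK1, was at 28.5, 29.3 and 28.5 CPM in Ly6Ghi, 3.74, 2.94 and 3.58 in Ly6Glow and 8.17, 8.53 and 6.4 in NL. It was 8.41-fold lower in Ly6Glow than in Ly6Ghi, the libraries of each group lying apart from those of the others; Ccna2 shares exon bases with Exosc9 on the opposite strand. Ccnb2, a B-type cyclin that activates CDK1, was at 27.9, 30.1 and 28.1 CPM in Ly6Ghi, 4.39, 3.39 and 4.42 in Ly6Glow and 5.7, 4.79 and 5.32 in NL. The Ly6Ghi libraries stood 5.44-fold above NL, whereas Ly6Glow lay below NL by less than the threshold (log2 fold change -0.38 ± 0.13, not called, but -0.82 and called on log2(FPKM + 1)). Ccnb1, the main B-type cyclin, gave 2.12 for Ly6Ghi over NL and -2.96 for Ly6Glow over Ly6Ghi, and Plk1, polo-like kinase 1, 2.25 and -2.55.

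Aurka, the Aurora kinase of the centrosome and spindle poles, was at 18.6, 18.4 and 20.1 CPM in Ly6Ghi, 5.6, 6.25 and 6.17 in Ly6Glow and 3.64, 3.42 and 3.56 in NL. It was called higher in Ly6Glow than in NL (log2 fold change 0.76 ± 0.12), against the 20 mitotic genes called lower there, and the call was lost in the limma fit on log2(FPKM + 1), where it was 0.04 and the median of all genes -0.49. Aurkb, the Aurora kinase of the chromosomal passenger complex, was called lower in the same comparison at -1.03. Ttk, the kinase MPS1 that sets off the checkpoint, was at 4.24, 4.07 and 4.21 CPM in Ly6Ghi, 0.487, 0.452 and 0.305 in Ly6Glow and 1.66, 2.05 and 1.8 in NL, the largest decrease among the members from Ly6Ghi to Ly6Glow (-3.31 ± 0.25), with as few as 4 reads in a Ly6Glow library; its rise in Ly6Ghi over NL, 1.18, was 0.37 and not called on log2(FPKM + 1). Bub1b, which encodes the checkpoint protein BUBR1, was at 22.4, 22.6 and 20.7 CPM in Ly6Ghi, 2.68, 2.48 and 3.28 in Ly6Glow and 11.3, 11 and 11.1 in NL. Its rise in Ly6Ghi over NL was the smallest of the 30 mitotic calls (0.98 ± 0.07) and was not called on FPKM (0.42), while it was 3.95-fold lower in Ly6Glow than in NL. Bub1 gave 1.28, -1.71 and -2.99 for the 3 comparisons in the same order. The first of these was 0.51 and not called on log2(FPKM + 1).

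The 3 regulators of anaphase and of CDK1 were all called higher in Ly6Ghi than in NL and lower in Ly6Glow than in Ly6Ghi. The shares of all tested genes called so were 26.3% and 15.9%. Cdkn3, a phosphatase that removes an activating phosphate from CDKs, was at 9.41, 8.62 and 8.67 CPM in Ly6Ghi, 0.975, 1.13 and 0.839 in Ly6Glow and 0.719, 0.867 and 0.901 in NL. This was the largest increase of any member in Ly6Ghi over NL, 10.7-fold (log2 3.41 ± 0.16, adjusted p = 7.45e-15 by edgeR's quasi-likelihood test with Benjamini-Hochberg adjustment). Ly6Glow and NL overlapped, and their difference of 0.24 ± 0.27 was not called and had the opposite sign on FPKM (-0.24). Cdc20, the activator of the anaphase-promoting complex, gave 2.23 and -2.90 for Ly6Ghi over NL and Ly6Glow over Ly6Ghi, and Ube2c, the ubiquitin-conjugating enzyme of the same complex, 2.15 and -2.33. Ube2c shares exon bases with Tnnc2 on the opposite strand.

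All 6 members of the centromere and kinetochore rose in Ly6Ghi over NL, by between 1.59 and 1.94 on the log2 scale, and all 6 fell in Ly6Glow against Ly6Ghi, by between 1.52 and 2.92. All were called, as were 26.3% and 15.9% of all tested genes in these directions. Cenpa, the histone H3 variant of centromeres, was the one with the smallest decrease, and its level in Ly6Glow (9.18, 9.33 and 7.09 CPM) overlapped that in NL (8.58, 7.89 and 7.48). Cenpe, a kinetochore motor, was at 28.2, 28.3 and 29.5 in Ly6Ghi and 4.06, 3.84 and 3.43 in Ly6Glow. Birc5, which encodes survivin of the passenger complex, was uneven in Ly6Glow, at 1.95, 4.37 and 3.13 CPM. Neither was called between Ly6Glow and NL in the count fit, and both were lower in Ly6Glow on log2(FPKM + 1), Cenpa at -0.59 and Birc5 at -1.28.

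Of the 6 genes of the spindle and its microtubules, 5 were called higher in Ly6Ghi than in NL. All 6 were called lower in Ly6Glow than in Ly6Ghi. The shares of all tested genes were 26.3% and 15.9%. Kif11, the motor that pushes spindle poles apart, was at 29.7, 28.3 and 29.6 CPM in Ly6Ghi, 3.82, 3.31 and 4.27 in Ly6Glow and 7.86, 9.86 and 9.15 in NL. Tpx2, a spindle assembly factor that activates Aurora A, was at 30.6, 27.9 and 31.7 CPM in Ly6Ghi, 4.87, 4.06 and 5.49 in Ly6Glow and 7.68, 9.08 and 8.38 in NL. Both were called higher in Ly6Ghi than in NL and lower in Ly6Glow than in either, with no overlap between groups. Hmmr, a spindle-associated hyaluronan receptor, was called higher in Ly6Ghi than in NL, but not on log2(FPKM + 1) (0.57), as Anln of cytokinesis was not (0.43). Hmmr fell least of the group in Ly6Glow against Ly6Ghi (-1.11), and its difference between Ly6Glow and NL was 0.07. Stmn1, stathmin, which destabilizes microtubules, was the 1 mitotic gene highest in NL, at 21.7, 24.2 and 24.3 CPM in Ly6Ghi, 6.74, 7.9 and 6.4 in Ly6Glow and 35.1, 31 and 32.8 in NL. The NL libraries lay above all Ly6Ghi libraries, but the difference of -0.49 ± 0.07 did not reach the fold threshold; with at least 10 counts required in every library it was -0.67, and on FPKM -0.93, and it was called. Ly6Glow was 4.69-fold below NL.

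Of the 4 cytokinesis genes, Kif20a, Ect2 and Anln were called lower in Ly6Glow than in Ly6Ghi, by between 2.26 and 2.91 on the log2 scale, and Kif23 was not. Of all tested genes, 15.9% were called lower there. Kif23 encodes a kinesin of the central spindle, MKLP1, and was at 60.5, 58.4 and 58.9 CPM in Ly6Ghi, 52.1, 50.4 and 54.3 in Ly6Glow and 18.4, 19.4 and 18.1 in NL. Ly6Glow was nearly as high as Ly6Ghi, at a log2 difference of -0.18 ± 0.05 (not called), and both lay well above NL, by 1.67 ± 0.05 for Ly6Ghi and 1.49 ± 0.06 for Ly6Glow. Kif23 was the only one of the 31 mitotic genes not called lower in Ly6Glow than in Ly6Ghi. Kif20a shares 1271 exon bases with Cdc23 on the opposite strand, so its reads could be split or mixed by the counting.

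Mki67 and Top2a, a coat protein of mitotic chromosomes and the topoisomerase that untangles them, are the usual marks of cycling cells. Mki67 was at 314, 315 and 320.3 CPM in Ly6Ghi, 71.1, 72.2 and 78.7 in Ly6Glow and 84.1, 90.4 and 87.6 in NL. Ly6Ghi was 3.62-fold above NL and Ly6Glow 4.27-fold below Ly6Ghi, while Ly6Glow lay below NL by only 0.24 on the log2 scale, which was not called; on log2(FPKM + 1) the same difference was -0.87 and called. Top2a was at 105, 108 and 106 CPM in Ly6Ghi, 14.4, 15.8 and 14.8 in Ly6Glow and 36.4, 40.9 and 37.4 in NL. It fell 7.08-fold from Ly6Ghi to Ly6Glow and was also lower in Ly6Glow than in NL, by 2.55-fold, with no overlap between any groups. Per length, the FPKM of Mki67 in Ly6Ghi, 31.8 ± 0.431 (SD, n = 3), was above that of Top2a (19.5 ± 0.296) and Ube2c (27.1 ± 0.686).

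**Figure D4:**
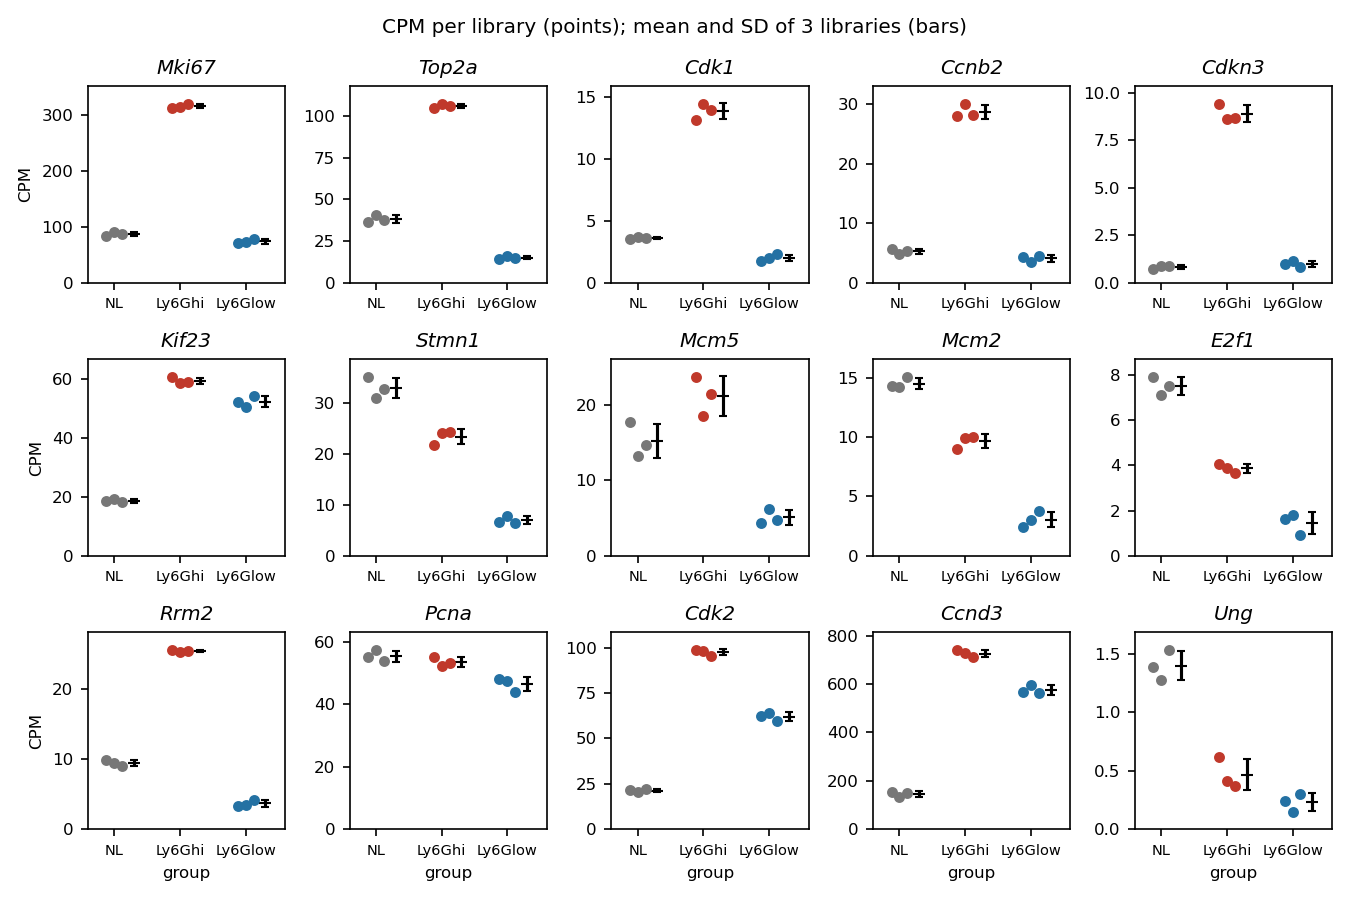
CPM of 15 members in each of the 9 libraries (points) with the mean and SD of the 3 libraries of a group (bars); each panel has its own axis from 0. Mki67, Top2a, Cdk1, Ccnb2 and Cdkn3 are high in Ly6Ghi only, Kif23, Cdk2 and Ccnd3 are above NL in both macrometastatic groups, and Stmn1, Mcm2, E2f1 and Ung are highest in NL.

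Among S-phase genes, the cyclins and kinase of the G1 to S transition held the members furthest above NL. Ccnd3, cyclin D3, was at 739.8, 727 and 712 CPM in Ly6Ghi, 568, 597 and 562 in Ly6Glow and 153, 132 and 149.9 in NL. Both macrometastatic groups lay far above NL, by 5.01-fold for Ly6Ghi and 3.97-fold for Ly6Glow, and Ly6Glow lay below Ly6Ghi by less than the threshold (-0.33 ± 0.04, not called). Per length it had the highest level of any member, with an FPKM (fragments scaled for length and depth) of 377 ± 6.95 in Ly6Ghi, 253 ± 7.31 in Ly6Glow and 103 ± 6.09 in NL (SD, n = 3); it shares 361 exon bases with Bysl on the opposite strand. Cdk2, the partner of cyclins E and A, was at 98.7, 98.3 and 95.7 CPM in Ly6Ghi, 62.5, 64.3 and 59.6 in Ly6Glow and 21.3, 20.3 and 21.9 in NL. The groups did not overlap, and the log2 fold changes were 2.20 ± 0.05 and 1.55 ± 0.05 over NL and -0.65 ± 0.05 for Ly6Glow over Ly6Ghi. Of the E-type cyclins, Ccne1 gave 0.49 for Ly6Ghi over NL (not called) and Ccne2 0.63 (called), and both fell in Ly6Glow against Ly6Ghi, by 1.32 and 1.09. Neither call of Ccne2 was made on log2(FPKM + 1), where its values were 0.069 and -0.52.

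Origin licensing loads the MCM helicase onto DNA before S phase, through CDC6 and CDT1 and against geminin. Cdc6 and Gmnn, for geminin, were called higher in Ly6Ghi than in NL at 0.60 and 0.80, whereas Cdt1 differed by -0.10. On log2(FPKM + 1) neither was called, at 0.068 for Cdc6 and 0.28 for Gmnn, and the call of Cdc6 was also lost with at least 10 counts in every library (0.42) and without NL replicate 1 (0.58). Mcm2 was at 8.98, 9.92 and 10.0 CPM in Ly6Ghi, 2.44, 3.01 and 3.73 in Ly6Glow and 14.3, 14.2 and 15.1 in NL. Its decrease in Ly6Ghi against NL (-0.59 ± 0.09) lay at the edge of the threshold, and the call was lost by DESeq2 (-0.57), with its size factors in edgeR (-0.56), when genes with low counts were kept (-0.57), without Ly6Ghi replicate 1 (-0.53) and without NL replicate 3 (-0.56), while in Ly6Glow it was 4.71-fold below NL. Mcm5 was at 23.7, 18.5 and 21.4 CPM in Ly6Ghi, 4.3, 6.25 and 4.8 in Ly6Glow and 17.7, 13.2 and 14.7 in NL. Ly6Ghi lay above NL in each library by 0.48 ± 0.10 on the log2 scale, which was not called except without NL replicate 1 (0.60), and Ly6Glow was 4.12-fold below Ly6Ghi. Mcm3, Mcm6 and Mcm7 had their highest mean in NL, with -0.54, -0.51 and -0.19 for Ly6Ghi over NL (none called, though Mcm3 and Mcm6 were on log2(FPKM + 1), at -0.85 and -0.83) and -2.03, -2.01 and -1.97 for Ly6Glow over NL (all called). Mcm7 shares exon bases with 2 microRNA genes on its strand and with Ap4m1 and Cops6 on the other.

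Mcm4 stood apart from the other subunits, at 33.8, 33 and 35.5 CPM in Ly6Ghi, 29.2, 25 and 26.1 in Ly6Glow and 26.4, 27.1 and 24.5 in NL. None of its 3 differences was called in the count fit, that of 0.39 for Ly6Ghi over NL being -0.07 on FPKM. Ly6Glow and NL overlapped (0.04 ± 0.07), but on log2(FPKM + 1) the difference was -0.58 and called lower, and its sign also turned with at least 10 counts in every library (-0.14), without Ly6Glow replicate 1 (-0.02) and without NL replicate 3 (-0.0021). The subunits of the same hexamer had log2 differences between Ly6Glow and Ly6Ghi that ran from -2.04 for Mcm5 to -0.35 for Mcm4.

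At the replication fork, Cdc45, a partner of the MCM helicase, was called higher in Ly6Ghi than in NL at 1.17 ± 0.13, which was 0.51 and not called on log2(FPKM + 1), and Ly6Glow was at -0.06 against NL. Gins2, of the same helicase complex, was at 1.42, 1.48 and 1.49 CPM in Ly6Ghi, 0.325, 0.301 and 0.229 in Ly6Glow and 1.8, 1.41 and 1.98 in NL. Ly6Ghi and NL overlapped and Ly6Glow lay 5.03-fold below Ly6Ghi, from few reads; Gins2 shares 2758 exon bases with Gse1 on the opposite strand. Prim1, the catalytic primase subunit, was at 2.52, 3.01 and 4.02 CPM in Ly6Ghi, 0.812, 0.677 and 0.534 in Ly6Glow and 3.01, 4.29 and 2.97 in NL. Ly6Glow was 4.7-fold below Ly6Ghi, and Ly6Ghi and NL overlapped, with a difference of -0.10 that turned to 0.05 without Ly6Ghi replicate 1 and to 0.09 without NL replicate 2.

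Pola1, the catalytic subunit of DNA polymerase alpha, was at 5.78, 5.14 and 5.45 CPM in Ly6Ghi, 1.46, 1.81 and 1.52 in Ly6Glow and 9.57, 9.4 and 7.89 in NL. It was called lower in Ly6Ghi than in NL (-0.71 ± 0.11) and lower again in Ly6Glow, 5.57-fold below NL. Pcna, the sliding clamp, varied little, at 55.2, 52.2 and 53.2 CPM in Ly6Ghi, 48.2, 47.6 and 44.1 in Ly6Glow and 55.1, 57.4 and 53.9 in NL. Its 3 differences lay between -0.25 and -0.05 on the log2 scale and none was called; on log2(FPKM + 1) Ly6Glow over NL was -0.93 and called. Fen1, the flap endonuclease, and Rfc4, of the clamp loader, were not called for Ly6Ghi over NL (0.22 and 0.17) and fell in Ly6Glow against Ly6Ghi by 1.00 and 1.24; both share exon bases with genes on the other strand.

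Of the 5 genes of nucleotide supply, 1 was called higher in Ly6Ghi than in NL (20%, with 26.3% of all tested genes). Called lower in Ly6Glow than in Ly6Ghi were 4 (80%, with 15.9% of all tested genes). Rrm2, the regulatory subunit of ribonucleotide reductase, was at 25.5, 25.2 and 25.3 CPM in Ly6Ghi, 3.33, 3.46 and 4.19 in Ly6Glow and 9.84, 9.45 and 9.06 in NL. It was 2.68-fold higher in Ly6Ghi than in NL and 6.89-fold lower in Ly6Glow than in Ly6Ghi, the largest decrease of any S-phase gene (adjusted p = 6.65e-16, edgeR's quasi-likelihood test with Benjamini-Hochberg adjustment). Rrm1, the catalytic subunit of the same enzyme, was at 31.4, 30.7 and 32 CPM in Ly6Ghi, 10.1, 9.48 and 8.69 in Ly6Glow and 25.2, 27.1 and 23.2 in NL. Ly6Ghi exceeded NL by 0.32 ± 0.06, which was not called and had the opposite sign on FPKM (-0.13), and Ly6Glow was 3.33-fold lower than Ly6Ghi. Tyms, thymidylate synthase, lay between 9.38 and 12.6 CPM in all libraries and was called in no comparison of the count fit (Ly6Glow over NL was -0.59 and called on log2(FPKM + 1)), while Tk1, thymidine kinase 1, fell by 1.93 and Dut, the dUTPase, by 1.27 in Ly6Glow against Ly6Ghi. Dut was the most scattered member in Ly6Glow, at 1.46, 0.602 and 1.37 CPM.

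Genes that keep DNA methylation through replication, Dnmt1 and Uhrf1, were called lower in Ly6Glow than in both other groups. Dnmt1, the maintenance methyltransferase, was at 54.6, 54.6 and 52 CPM in Ly6Ghi, 21.9, 19.6 and 20.4 in Ly6Glow and 40.8, 38.6 and 43.1 in NL. Ly6Ghi was above NL by 0.40 ± 0.05 (not called, and -0.06 on FPKM), and Ly6Glow was 1.98-fold below NL. Uhrf1, which guides DNMT1 to new strands, differed by 0.32 and -1.85 in the same comparisons. Ung, the uracil-DNA glycosylase, had the lowest FPKM of any member in Ly6Ghi and in Ly6Glow, with 0.615, 0.413 and 0.371 CPM in Ly6Ghi, 0.244, 0.15 and 0.305 in Ly6Glow and 1.39, 1.28 and 1.53 in NL. NL was highest and Ly6Ghi 2.98-fold below it, and Ly6Glow rested on as few as 2 reads in a library, its difference from Ly6Ghi (-0.98 ± 0.50) not being called. E2f1, the activator of S-phase genes, was at 4.06, 3.9 and 3.65 CPM in Ly6Ghi, 1.62, 1.81 and 0.915 in Ly6Glow and 7.9, 7.12 and 7.53 in NL. It was lower in Ly6Ghi than in NL by 1.94-fold and lower again in Ly6Glow, 5.18-fold below NL, with no overlap between the 3 groups.

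Other lists of cell cycle genes, which hold none of the 60 members, were counted in the same fit, where the medians of all tested genes were -0.09 for Ly6Ghi over NL, -0.16 for Ly6Glow over NL and -0.04 for Ly6Glow over Ly6Ghi. Beside these and the lists below, 26.3% of all tested genes were higher and 36.6% lower in Ly6Ghi over NL. For Ly6Glow over NL the shares were 28.7% and 40.8%, and for Ly6Glow over Ly6Ghi 9.29% and 15.9%. Of 32 other mitotic genes, 30 were higher and 0 lower in Ly6Ghi over NL (median 1.21) in the count fit. No count on log2(FPKM + 1) is given for this list, and there the median of all tested genes was -0.32. Mean FPKM in Ly6Ghi and NL was close for some genes called higher, such as Bub3 (16.2 and 12.4) and Espl1 (1.38 and 1.18). For others, such as Cdca8 (9.42 and 2.99), it was far apart. In Ly6Glow over NL 3 were higher and 24 lower (median -1.06), and in Ly6Glow over Ly6Ghi 0 higher and 28 lower (median -2.33). Cdca8, for borealin of the passenger complex, rose from 3.86, 3.38 and 3.6 CPM in NL to 15.9, 15.3 and 15.8 in Ly6Ghi. Spc25, of the kinetochore, was 8.44-fold lower in Ly6Glow (1.14, 0.828 and 0.991 CPM) than in Ly6Ghi (9.04, 6.55 and 9.47). The 3 called higher in Ly6Glow than in NL were Smc4, Pttg1 and Cks2, named after their values were seen; on log2(FPKM + 1) Smc4 (-0.0062) and Pttg1 (0.21) were not called. Cks2, a small CDK-binding protein, was at 33.9, 36.3 and 35 CPM in Ly6Ghi, 31.3, 32.1 and 32.8 in Ly6Glow and 10.0, 8.94 and 9.64 in NL. Like Kif23, it was not called between Ly6Glow and Ly6Ghi (-0.13 ± 0.06).

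Of 32 other replication genes, 8 were higher and 5 lower in Ly6Ghi over NL (median 0.17), 5 higher and 22 lower in Ly6Glow over NL (median -0.94), and 1 higher and 21 lower in Ly6Glow over Ly6Ghi (median -0.93). Ticrr, which starts origin firing, was 7.28-fold lower in Ly6Glow than in Ly6Ghi, and Pole, the leading-strand polymerase, 5.02-fold lower (-0.56 and not called on log2(FPKM + 1), which shrinks changes of low genes). For Ly6Ghi over NL, 25% called higher is close to the 26.3% of all tested genes, and 15.6% lower compares with 36.6%. Mcm10, a replication initiation factor, was the 1 gene called higher in Ly6Glow than in Ly6Ghi, at 7.93, 6.02 and 7.8 CPM in Ly6Ghi, 9.91, 11.1 and 11.4 in Ly6Glow and 6.33, 5.75 and 5.99 in NL, just past the threshold (0.58 ± 0.12) and at 0.14, not called, on log2(FPKM + 1). The call was also lost without Ly6Ghi replicate 2 (0.46), without Ly6Glow replicate 2 (0.56) and without Ly6Glow replicate 3 (0.54), and Mcm10 is named after its values were seen.

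The D-type cyclins other than Ccnd3 and their kinases moved the other way from Ccnd3. Ccnd1, Ccnd2, Cdk4 and Cdk6 were all called lower in Ly6Ghi and in Ly6Glow than in NL. Of all tested genes, 36.6% and 40.8% were called lower in the same comparisons. Ccnd1 was at 4.74, 5.08 and 4.83 CPM in Ly6Ghi, 4.79, 5.12 and 5.34 in Ly6Glow and 38.2, 35.4 and 35.9 in NL. Ccnd2 was at 36.9, 39.1 and 37.1 CPM in Ly6Ghi, 23.1, 21.8 and 22.3 in Ly6Glow and 164, 164 and 171 in NL. Ccnd1 thus fell 7.47-fold and Ccnd2 4.4-fold from NL to Ly6Ghi, where Ccnd3 rose 5.01-fold; only Ccnd2 differed by the threshold between Ly6Glow and Ly6Ghi (-0.75). By FPKM in Ly6Ghi, Ccnd3 at 377 ± 6.95 exceeded Ccnd2 at 6.06 ± 0.233 and Ccnd1 at 1.23 ± 0.0529 (SD, n = 3).

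Of the CDK inhibitors, 6 of 7 listed were tested. Of these, 3 were higher and 2 lower in Ly6Ghi over NL, 2 higher and 3 lower in Ly6Glow over NL, and 1 higher and 1 lower in Ly6Glow over Ly6Ghi, with medians of 0.29, -0.22 and 0.04. Over all tested genes 26.3% were higher and 36.6% lower, 28.7% and 40.8%, and 9.29% and 15.9% for the 3 comparisons in the same order. Cdkn2d, the inhibitor p19 of CDK4 and CDK6, was at 272, 267 and 269 CPM in Ly6Ghi, 228, 249.9 and 219 in Ly6Glow and 41.9, 40.4 and 45.3 in NL. Both macrometastatic groups were above NL, by 6.33-fold and 5.46-fold. Cdkn1a, for p21, was at 341, 334 and 339 CPM in Ly6Ghi, 603, 592 and 582 in Ly6Glow and 434, 407 and 426 in NL and was the 1 inhibitor called higher in Ly6Glow than in Ly6Ghi (0.81 ± 0.03, and 0.57, not called, on log2(FPKM + 1)), whereas Cdkn2c, for p18, was 3.51-fold lower. Cdkn2b, for p15, was low throughout, at 2.33, 3.06 and 2.16 CPM in NL and under 1 CPM in the other libraries.

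Of 19 pocket protein, E2F and DREAM or MuvB genes, 7 were higher and 3 lower in Ly6Ghi over NL, 5 higher and 7 lower in Ly6Glow over NL, and 0 higher and 8 lower in Ly6Glow over Ly6Ghi, with medians of 0.44, 0.05 and -0.29. The shares for Ly6Glow over NL, 26.3% higher and 36.8% lower, are near the 28.7% and 40.8% of all tested genes, whereas 42.1% were lower in Ly6Glow than in Ly6Ghi, against 15.9%. Foxm1, the activator of mitotic genes, was at 13.1, 14.7 and 14.2 CPM in Ly6Ghi, 2.6, 1.66 and 1.98 in Ly6Glow and 7.95, 7.3 and 7.34 in NL. It was 6.75-fold lower in Ly6Glow than in Ly6Ghi, the largest change of the list in that comparison. E2f8, a repressor E2F, was at 23.3, 22 and 23.3 CPM in Ly6Ghi, 5.6, 5.34 and 5.95 in Ly6Glow and 5.03, 5.52 and 4.33 in NL, 4.6-fold higher in Ly6Ghi than in NL. Its relative E2f7 fell 4.35-fold in Ly6Glow against Ly6Ghi, a call not made on log2(FPKM + 1) (-0.44). Tfdp2, an E2F partner, was lower in Ly6Ghi and Ly6Glow than in NL (-2.29 and -2.96), as was E2f5 (-1.63 and -2.48).

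Of 11 checkpoint, CDC25 and WEE1 genes, 4 were higher and 3 lower in Ly6Ghi over NL, 2 higher and 8 lower in Ly6Glow over NL, and 0 higher and 6 lower in Ly6Glow over Ly6Ghi, with medians of 0.0034, -1.06 and -0.71. For Ly6Ghi over NL, 36.4% higher and 27.3% lower compare with 26.3% and 36.6% of all tested genes. Cdc25a, the phosphatase that activates CDK2, was at 26.6, 29.2 and 27.3 CPM in Ly6Ghi, 4.71, 5.12 and 3.66 in Ly6Glow and 9.12, 9.58 and 9.37 in NL, highest in Ly6Ghi and lowest in Ly6Glow with no overlap. Cdc25c, which acts on CDK1 in mitosis, fell 8.3-fold from Ly6Ghi to Ly6Glow at low levels. Wee1, the kinase that CDC25 opposes, was 6.96-fold lower in Ly6Glow than in NL, and Atm, of the DNA damage checkpoint, 3.19-fold lower in Ly6Ghi and 4.76-fold lower in Ly6Glow than in NL.

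**Figure D5:**
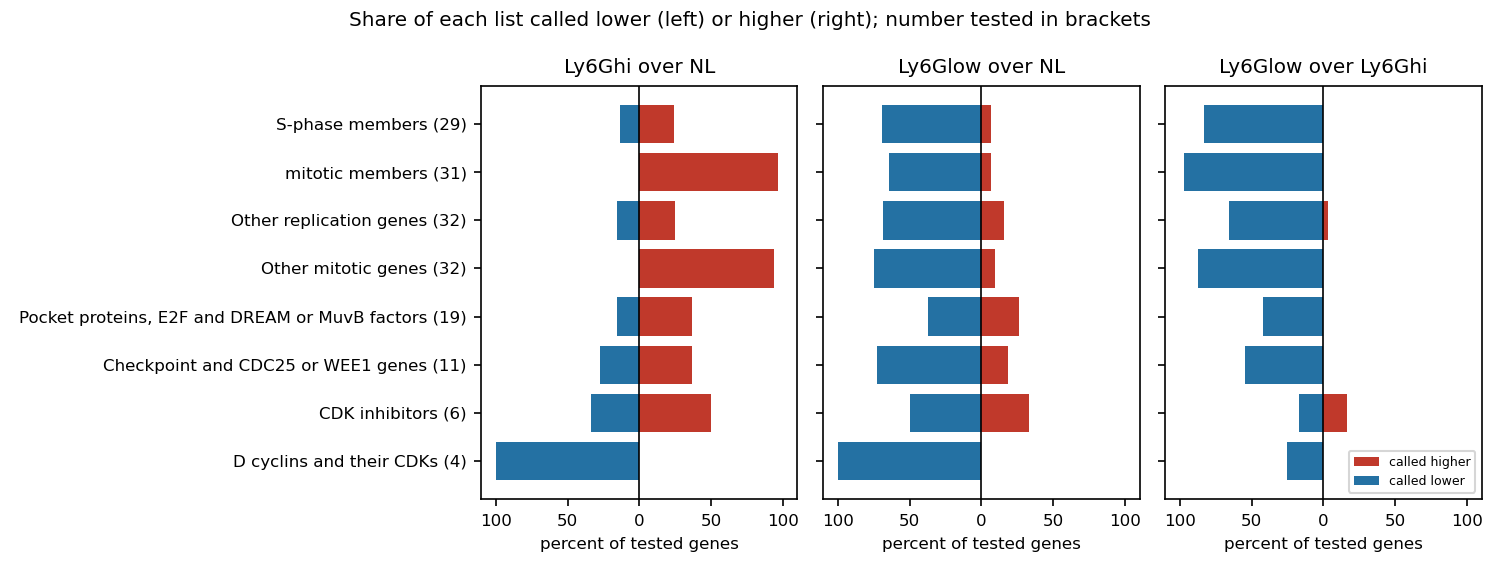
Percent of the tested genes of each list called higher (red, to the right) or lower (blue, to the left) in the 3 comparisons, with the number tested in brackets. In this count fit, both mitotic lists are called higher almost throughout for Ly6Ghi over NL (30 of 31 and 30 of 32), and the D cyclins and their CDKs lower (4 of 4).

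Markers of neutrophil stage and of other cells moved with these groups, and their part in the results was not tested. The summed level of 5 primary granule genes of early neutrophils was 89.9 to 91.0 CPM in Ly6Ghi, 16.2 to 18.4 in Ly6Glow and 2.97 to 4.18 in NL, highest where the mitotic genes were highest. All 5 were called higher in Ly6Ghi and in Ly6Glow than in NL, against 26.3% and 28.7% of all tested genes. The 6 secondary granule genes summed to 35650 to 36380, 12870 to 13390 and 6337 to 6623 CPM. The 6 genes of mature neutrophils summed to 64220 to 65960, 67100 to 68770 and 16290 to 16570. None of these genes was at 0 in any group, and both sums were lowest in NL. For Ly6Glow over NL, 4 secondary granule genes were called higher and 1 lower, with 28.7% and 40.8% of all tested genes.

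Marker sums of epithelial, endothelial and fibroblast cells and of alveolar macrophages were highest in NL. Epithelial or tumor cell genes (7) summed to 91.2 to 96.2 CPM in Ly6Ghi, 93.7 to 99.3 in Ly6Glow and 928 to 1030 in NL. Endothelial genes (5) gave 132 to 135, 162 to 172 and 844 to 919, and fibroblast genes (5) 49.4 to 57.0, 51.5 to 57.6 and 514 to 545. The 9 alveolar macrophage genes left after Chil3, which is also a secondary granule gene, summed to 261 to 272, 56.8 to 57.6 and 758 to 769 (1518 to 1571, 325 to 345 and 1714 to 1739 with it). The epithelial and fibroblast sums overlapped between Ly6Ghi and Ly6Glow. Of the 7 epithelial or tumor cell genes, 3 were still called lower in Ly6Glow than in Ly6Ghi, against 15.9% of all tested genes. The alveolar macrophage sum was lower in Ly6Glow than in Ly6Ghi, as the mitotic genes were.

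The 8 monocyte or macrophage genes summed to 497 to 513 CPM in Ly6Ghi, 569 to 595 in Ly6Glow and 682 to 754 in NL. The 7 measured T cell genes of 8 gave 48.2 to 50.8, 36.6 to 37.9 and 86.2 to 91.7, the 5 B cell genes 46.3 to 47.3, 28.1 to 30.0 and 27.4 to 29.9, the 5 NK cell genes 6.32 to 7.01, 2.59 to 3.61 and 11.9 to 12.8, and the 5 dendritic cell genes 9.59 to 11.8, 11.9 to 14.1 and 31.5 to 35.9. Eosinophil genes (5) were 79.5 to 85.9, 7.24 to 8.35 and 3.01 to 4.24, and basophil or mast cell genes (6) 40.2 to 42.2, 22.5 to 26.9 and 25.6 to 28.1. B cell, eosinophil and basophil or mast cell sums were thus highest in Ly6Ghi, as the mitotic genes were. For Ly6Ghi over NL, 3 of 5 B cell, 5 of 5 eosinophil and 4 of 5 tested basophil or mast cell genes were called higher. In the last list 1 gene was called lower. Of all tested genes, 26.3% were higher and 36.6% lower.

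The spread between libraries was small beside most of these differences. The SD over the 3 libraries had a median over the 60 members of 4.76% of the mean in Ly6Ghi, 14.8% in Ly6Glow and 7.56% in NL. The lowest count of a member was 6, 2 and 16 reads in these groups. In Ly6Glow, Ung, Gins2, Ttk, Prim1, Rfc4 and Dut had under 10 reads in at least 1 library and the largest SEs for Ly6Glow over Ly6Ghi, from 0.25 to 0.50. Exon bases shared with another gene, beyond those given above, lie with Gm23451 for Top2a and Gm23634 for Stmn1 on the same strand, and on the opposite strand with Pmel for Cdk2, Ufd1 for Cdc45, Elovl1 for Cdc20, Ints8 for Ccne2, Afmid for Tk1, Oip5 for Nusap1, Gm44985 for Plk1 and Rccd1 for Prc1. Totals ran from 15267177 to 17841807 estimated counts per library.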

How the data were processed

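Total RNA of 9 sorted neutrophil libraries was sequenced by BGI after poly(A) selection with a strand-marking kit. For each gene and library the authors deposited estimated counts and FPKM values (fragments scaled for length and depth), listed by NCBI Gene identifier and symbol. The submitters' processing notes name the build mm10; the aligner, the counting program and its strand setting are not given in the sources used here, so genes whose exons overlap those of a gene on the other strand (16 members) are uncertain. Groups came from the sample titles.

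Of 22064 genes listed, 3739 were blank. The estimated counts, 37.9% of them whole, were rounded and fitted with edgeR 4.0.16 in R 4.3.3 (TMM, filterByExpr by group, quasi-likelihood test, all 9 libraries in 1 model without covariates), with Benjamini-Hochberg adjustment over the 14108 genes tested. Standard errors are the size of the log2 fold change over the square root of F. The fit was tested on simulated data. No 2 libraries of a group agreed within sampling noise, with a chi-square of 1.25 to 2.20 per degree of freedom.

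The members and all lists were chosen with earlier results of these data known. Values per library are given for the 6 members of each class with the highest mean CPM, the 3 largest called fold changes per class and comparison, Mki67, Top2a, Cdk1, Pcna, Mcm5 and E2f1, and members called against the direction of most of their class; from each other list, the 2 largest called changes per comparison were named. A further few are named for their values. Motifs were searched in RefSeq promoter windows of GRCm38.p6, the build that mm10 denotes, and exon overlaps come from GENCODE M21. The alternatives were DESeq2's size factors, DESeq2 1.42.0, keeping genes with low counts, requiring 10 counts or more in each library, an unadjusted p, a log2 threshold of 1, the 6 libraries of a comparison alone, a replicate block, leaving out each library, and limma 3.58.1 on log2(FPKM + 1), with a pseudocount of 0.1, and with FPKM of at least 1 in 3 libraries. Fold changes on the log2(FPKM + pseudocount) scale understate those of low genes. The erythroid marker list is not reported here.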

Additional observations from a re-analysis of the deposited data

How the results depend on the processing

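Called members were recounted under each alternative, and 188 of 204 recounts stayed within 1.5 times the count reported. For Ly6Ghi over NL, S-phase genes called higher and lower were 4 and 1 with a log2 threshold of 1, 3 and 7 on log2(FPKM + 1) and 4 and 9 with a pseudocount of 0.1, and 3 were higher with FPKM of at least 1 in 3 libraries. The 1 mitotic gene called lower there with at least 10 counts in every library and in each FPKM fit was Stmn1. For Ly6Glow over NL, a threshold of 1 left 1 mitotic gene higher and 11 lower, and each FPKM fit left 1 higher. FPKM moved the median of all tested genes for Ly6Ghi over NL by -0.24 to -0.43 and for Ly6Glow over NL by -0.33 to -0.65. The FPKM fits did not apply the TMM factors of the count fit. Those factors were 0.9455 to 0.9504 in Ly6Ghi, 0.8029 to 0.8066 in Ly6Glow and 1.298 to 1.324 in NL. The part of this difference in scaling was not tested. The S-phase median for Ly6Ghi over NL turned to -0.16, -0.18 with a pseudocount of 0.1 and -0.14 with the FPKM minimum. In these 3 fits, in the same order, Dnmt1 (-0.062, -0.067 and -0.062), Mcm4 (-0.066, -0.072 and -0.066) and Rrm1 (-0.13, -0.14 and -0.13) turned for Ly6Ghi over NL, and Mcm4 (-0.58, -0.65 and -0.58) and Cdkn3 (-0.24, -0.40 and -0.24) for Ly6Glow over NL, none of them called in the count fit. Mcm4 for Ly6Glow over NL also turned with at least 10 counts in every library (-0.14), without Ly6Glow replicate 1 (-0.018) and without NL replicate 3 (-0.0021), in a range of -0.018 to 0.096 over the libraries left out, and Prim1 for Ly6Ghi over NL without Ly6Ghi replicate 1 (0.046) and without NL replicate 2 (0.094), in a range of -0.29 to 0.094.

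Leaving out each library in turn gave, for Ly6Ghi over NL, 7 to 8 S-phase genes higher, 3 to 5 lower and 30 mitotic genes higher, for Ly6Glow over NL 20 to 21 S-phase and 19 to 21 mitotic genes lower, and for Ly6Glow over Ly6Ghi 24 and 30 lower. Libraries with the same replicate number did not deviate together (r from -0.07 to 0.08), and those with different numbers had r from -0.10 to 0.14. The chi-square per degree of freedom was 1.25 to 1.44 within Ly6Ghi and Ly6Glow, not far above sampling noise, and up to 2.20 within NL. So little spread in Ly6Ghi and Ly6Glow leaves little to correlate, and the r values cannot decide whether the numbers pair libraries. With the number as a replicate block, 7 S-phase genes were higher, 4 lower and 30 mitotic genes higher for Ly6Ghi over NL. The block gave 20 S-phase and 21 mitotic genes lower for Ly6Glow over NL, and 24 and 30 lower for Ly6Glow over Ly6Ghi. Depth limits mainly the members with under 10 reads in a Ly6Glow library, such as Ung and Gins2.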
